A study of Homo sapiens with 4 samples.

Results

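The type I interferon response genes are a set of 41 genes that act in the response of cells to viral nucleic acid or interferon. Many of them, though not all, are switched on by that response. They were listed by symbol, with no threshold on their values, though earlier results of these data were known when the list was made. All 41 were found among the 58233 genes of the count table. Of these, 34 had enough counts to be tested. The set was read by role, as 4 sensors of foreign nucleic acid, 5 transcription factors and 32 effectors. RNA-seq was done on MCF10AT, an established human cell line that the labels call mammary epithelial and transformed by HRasG12V, an oncogenic form of HRAS. The 2 libraries of the genotype labelled Bromo+/- were compared with 2 libraries of a non-target control. The label does not spell out Bromo further. The protocols carry the same text for all 4 libraries, which covers stable shRNA knockdown by lentivirus with puromycin selection and growth in medium with serum, growth factor, cholera toxin and the steroid hydrocortisone. No label says whether the libraries of a group came from separate cultures or clones, so the p-values below reflect only how much these libraries vary, which may be technical.

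In the textbook pathway, the cytosolic receptors RIG-I (gene RIGI) and MDA5 (IFIH1) bind viral RNA and signal through the adaptor MAVS and the kinase TBK1 to the factors IRF3 and IRF7, which turn on interferon genes. Secreted interferon binds the receptor IFNAR1 with IFNAR2, and the kinases JAK1 and TYK2 then signal to the complex ISGF3, which holds STAT2 and IRF9 and binds the interferon-stimulated response element (ISRE) in the promoters of the effector genes. Epithelial cells keep many of these genes at a low level without infection.

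Promoter sequence is shown first, because the ISRE is what many of these genes are known to have in common and because it stood in front of members that rose, fell and did not pass alike. The RefSeq windows of build GRCh38.p14 run from 250 bases before to 50 bases after a transcript start. They held 40 windows of 31 members, some of them overlapping windows of the same gene. The ISRE core, here GAAA, any 2 bases and GAAA again, was searched on both strands, overlapping matches included. It was found in 25 of the 40 windows (62.5%) and in 1255 of all 35116 windows (3.57%). The longer form, the core followed directly by CT, was in 17 of the 40 (42.5%) and in 96 of all windows (0.273%). The gamma-activated site TTCNNNGAA, which reads the same on both strands, was in 10 of the 40 (25%) and in 7.66% of all. By member, the core was present in 6 of 7 with a window that were called higher in the libraries labelled Bromo+/-, in 4 of 8 called lower, in 8 of 12 that did not pass and in 3 of 4 that were not tested. A match is a description of letters and not a mapped binding site. No window was used for DHX58, IRF3, IRF7, IFIT2, OAS2, OASL, MX2, USP18, TRIM22 and IFITM2.

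The stretches below read 5′ to 3′ on the strand of the gene, with each core in capitals. Capitals that read TTTC mark a core on the other strand. Positions are those of the first base of a core counted from the transcript start. The first 3 stood before members that were higher in the libraries labelled Bromo+/-, at chr1:78620259-78620409 (IFI44L, plus strand, cores at -164 and -73), chr1:78649746-78649788 (IFI44, plus strand, core at -18) and chr1:27672251-27672373 (IFI6, minus strand, 3 cores between -156 and -93).
IFI44L: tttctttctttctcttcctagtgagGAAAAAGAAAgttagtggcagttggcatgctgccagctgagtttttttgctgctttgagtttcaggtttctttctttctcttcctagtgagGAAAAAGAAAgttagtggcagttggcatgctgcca
IFI44: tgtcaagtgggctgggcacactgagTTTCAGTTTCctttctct
IFI6: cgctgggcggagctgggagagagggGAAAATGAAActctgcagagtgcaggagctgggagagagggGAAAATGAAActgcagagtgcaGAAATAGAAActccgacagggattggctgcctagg
In the printed bases of IFI44L a run of 60 bases around the core occurred a second time 91 bases further on. The copies reach the ends of the printed stretch, so the repeat may be longer. IFI6 held a repeated run of 29 bases at a distance of 41 bases. The next 3 stood before members that were lower, at chr2:162318685-162318868 (IFIH1, minus strand, 3 cores between -159 and -21), chr7:93118081-93118140 (SAMD9, minus strand, core at -136) and chr3:122564322-122564351 (DTX3L, plus strand, core at -6).
IFIH1: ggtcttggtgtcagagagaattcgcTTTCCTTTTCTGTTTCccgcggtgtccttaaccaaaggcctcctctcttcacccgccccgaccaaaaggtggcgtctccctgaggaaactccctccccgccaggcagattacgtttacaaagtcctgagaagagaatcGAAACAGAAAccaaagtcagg
SAMD9: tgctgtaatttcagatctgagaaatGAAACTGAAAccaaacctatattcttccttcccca
DTX3L: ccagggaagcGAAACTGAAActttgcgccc
The DTX3L core, at 122564332 to 122564341 on chromosome 3, was also the core at -41 of PARP9, which is read from the opposite strand. The last 2 stood before members that did not pass, at chr1:1013359-1013424 (ISG15, plus strand, overlapping cores at -113 and -107) and chr10:89392482-89392554 (IFIT1, plus strand, cores at -116 and -103).
ISG15: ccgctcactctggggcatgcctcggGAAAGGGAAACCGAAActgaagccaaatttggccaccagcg
IFIT1: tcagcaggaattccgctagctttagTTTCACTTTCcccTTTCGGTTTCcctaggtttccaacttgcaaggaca

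The libraries labelled Bromo+/- held 11975396 and 10953756 counts, and the controls held 10835237 and 11884715. The 41 genes took 0.0832% to 0.0834% of the counts in Bromo+/-, against 0.0921% to 0.0931% in controls. Levels are given as CPM, counts scaled to a common library size after normalisation. EP300, whose knockdown the title of the series names, was slightly higher in the libraries labelled Bromo+/- (121 and 126 CPM, against 106 and 111 CPM in controls, log2 fold change 0.19, SE 0.06, adjusted p = 0.00701, edgeR), which does not show a knockdown of its mRNA. The label mammary epithelial was checked against markers. All 10 epithelial markers were lower in the libraries labelled Bromo+/-, with a summed level of 1686 to 1755 CPM, against 9032 to 9262 CPM in controls, and KRT14 had no count there. Of 12 mesenchymal and fibroblast markers the 7 tested were all higher (5893 to 6061 CPM summed over the list, against 1814 to 1929 CPM in controls). Most of that sum was FN1 (mean 4011 CPM, against 1242 CPM in controls) and VIM (mean 1699 CPM, against 569 CPM in controls). The other 5 had too few counts to test, and COL3A1 and LUM among them had none. KRT14, TP63 and ESRP1 reached the filter on low counts only through the controls, and DCN only through the libraries labelled Bromo+/-. Of 12 leukocyte markers 10 had at most 3 counts over the 4 libraries and CD3D, CD3E, MS4A1 and FCGR3A were among those with none. CD14 and CSF1R, the other two, were lower, and the list summed to 4.52 to 5.14 CPM, against 13.3 to 14.5 CPM in controls. Of 6 plasmacytoid dendritic cell markers CLEC4C, LILRA4 and IRF8 had no count, and TCF4, the 1 tested, was higher. The list summed to 11 CPM in both libraries labelled Bromo+/-, against 6.83 to 7.35 CPM in controls. Most of this was TCF4 alone, at 9.21 and 10.2 CPM, against 6.69 and 6.31 CPM in controls. IL3RA (22 and 9 counts, against 4 in each control) and SPIB (no count, against 3 and 2 in controls) were not tested. The share of counts from the mitochondrial genome was 5.05% and 5.18% in Bromo+/-, against 4.32% and 4.21% in controls. The part of any of these in the interferon genes was not tested. In such bulk samples fewer cells of a type and less RNA per cell cannot be told apart.

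The set did not move one way. Of the 34 tested members 9 were higher in the libraries labelled Bromo+/- and 12 lower, and 13 did not pass the threshold, which was 0.05 for the adjusted p of the quasi-likelihood test in edgeR. Thus 61.8% of the tested members were called, beside a background of 53.5% of all 13179 tested genes (26.4% higher and 27.1% lower), which is near enough that the count says little about the set. Called and at least 2-fold apart were 11 of the 34 (5 higher and 6 lower), where the background was 15%. Among the higher, IFITM1 and IFI6 had enough counts to be tested only through the libraries labelled Bromo+/-, where they are high. The libraries of the groups did not overlap for 26 of the 34, with a background of 75.2%. The median log2 fold change was -0.11 over the tested members and 0.0062 over all tested genes. Scaling by library size alone changed the split over all genes, with 4433 higher and 2794 lower calls in place of 3485 and 3570, while the direction of every called member was kept under each scaling tried. By role, the calls among sensors and transcription factors were all on the lower side (2 of 3 and 3 of 5 tested). Effectors had 9 higher and 7 lower of 26 tested, with a median of 0.04.

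**Figure D1:**
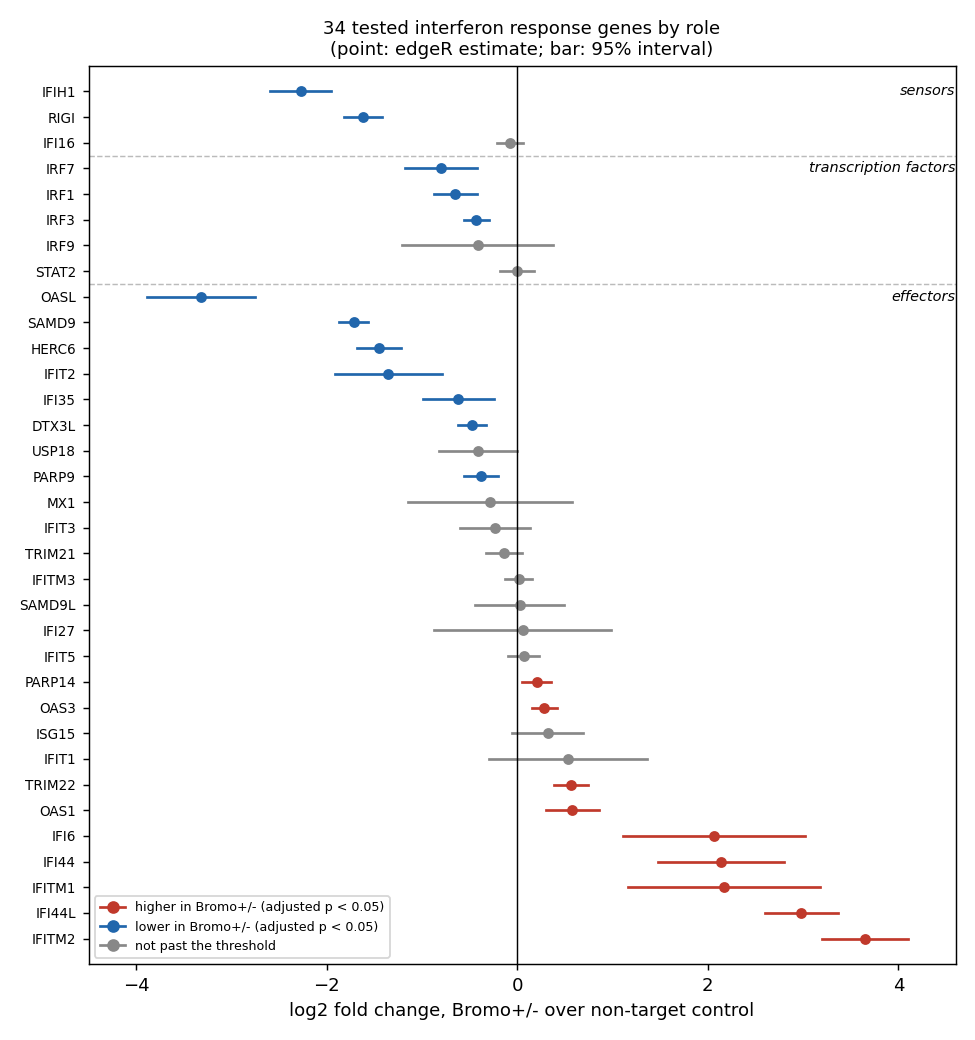
Log2 fold change (Bromo+/- over non-target control, horizontal axis) of the 34 tested members, grouped by role from top to bottom, with the edgeR estimate as a point and its 95% interval as a bar. Sensors and transcription factors past the threshold lie left of 0, and effectors run from OASL at -3.32 to IFITM2 at 3.65.

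Both tested members with the role of RNA sensor, RIGI and IFIH1, were lower. RIGI, which detects short double-stranded RNA with a triphosphate end (chromosome 9, GRCh38, 32455705 to 32526324), stood at 15 and 15.5 CPM in the libraries labelled Bromo+/-, against 46.1 and 47.5 CPM in controls. Its log2 fold change was -1.62 (SE 0.10, adjusted p = 1.07e-40, edgeR). IFIH1, which encodes MDA5, the sensor of long double-stranded RNA (chromosome 2, 162267079 to 162318703), stood at 5.22 and 4.25 CPM in the libraries labelled Bromo+/-, against 23.4 and 22.6 CPM in controls. Its log2 fold change was -2.27 (SE 0.16, adjusted p = 4.28e-37, edgeR), so the level was 4.83-fold lower. For each gene both libraries labelled Bromo+/- lay below both controls. DHX58, which encodes LGP2, the regulator of the other two, was near the limit of detection and pointed the other way, with 7 and 5 counts in the libraries labelled Bromo+/-, against 3 and 0 in controls. That is a ratio of 3.74 with a 95% exact binomial interval of 1.01 to 20.7, which covers counting error only and is not a test between conditions. IFI16, a nuclear sensor of DNA, did not pass. It stood at 82.5 and 92.5 CPM in the libraries labelled Bromo+/-, against 90.5 and 93.6 CPM in controls, and the groups overlapped (log2 fold change -0.08, 95% interval -0.21 to 0.06). Genes that bind RNA did not all fall. OAS1 (0.58) and OAS3 (0.28), placed here among the effectors, and the RNA receptor gene TLR3 (1.29), outside the set, were higher.

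All 3 interferon regulatory factors of the set other than IRF9 were lower, by less than 2-fold each. IRF1, an activator first known from the interferon-beta promoter, stood at 15.5 and 14.3 CPM in the libraries labelled Bromo+/-, against 24.2 and 22.6 CPM in controls (log2 fold change -0.65, SE 0.11, adjusted p = 1.52e-07, edgeR). IRF3, the factor that sensing activates by phosphorylation and which needs no interferon to be made, stood at 81.3 and 79.2 CPM, against 113 and 103 CPM in controls (-0.43, SE 0.07, adjusted p = 3e-09, edgeR). IRF7, the factor that interferon itself induces, stood at 4.40 and 4.69 CPM, against 9.07 and 6.83 CPM in controls (-0.80, SE 0.19, adjusted p = 0.00011, edgeR). No library of one group overlapped the other for these 3 genes.

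Exons of IRF3 share 734 bases with BCL2L12 and those of IRF1 share 1716 bases with IRF1-AS1 and 469 with an unnamed locus, all on the opposite strand, and the strand setting of the counting is not given in the sources used here. With the overlapping genes summed the log2 fold changes were -0.40 and -0.67. The ISGF3 partners did not pass. STAT2 stood at 38.1 and 29.9 CPM in the libraries labelled Bromo+/-, against 35.4 and 32.9 CPM in controls, with overlapping groups and a 95% interval of -0.18 to 0.18 on the log2 scale. IRF9 had 12 counts in each library labelled Bromo+/-, against 15 in each control, and its 95% interval of -1.20 to 0.38 leaves either direction within range. Its count is uncertain because 1838 bases of its exons are shared, on the same strand, with an unnamed locus. IRF9 and that locus summed to 22 and 19 counts, against 26 and 23 in controls.

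Among the effectors IFITM2, IFI44L, IFITM1, IFI44 and IFI6 rose by more than 2-fold, and the estimates for IFITM1, IFI44 and IFI6 lay within their errors of each other. IFITM proteins sit in membranes and hinder the fusion of viruses with the cell. IFITM2 (chromosome 11, 307631 to 315272) stood at 27.1 and 25.6 CPM in the libraries labelled Bromo+/-, against 2.39 and 1.82 CPM in controls. Its log2 fold change was 3.65 (SE 0.23, adjusted p = 2.37e-56, edgeR), 12.6-fold. IFITM1 rose as well, on few counts, with 23 and 26 in the libraries labelled Bromo+/-, against 2 and 8 in controls (2.17, SE 0.51, adjusted p = 5.75e-06, edgeR). The fold for IFITM1 moved by up to 2.29 times when 1 library was left out, from 1.57 to 3.37 on the log2 scale. IFITM1 had enough counts to be tested only through the libraries labelled Bromo+/-.

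IFITM3 was the most abundant member per kilobase in both groups and did not pass. It stood at 81.5 and 73.4 CPM in the libraries labelled Bromo+/-, against 81.8 and 72.0 CPM in controls (log2 fold change 0.01, 95% interval -0.12 to 0.15). The 3 IFITM genes are close copies and their reads may be split or shared. IFITM1 and IFITM2 also share 351 bases of exon on the same strand. With IFITM1 and IFITM2 summed the counts were 355 and 315, against 27 and 29 in controls (3.48, SE 0.21). With all 3 summed they were 1355 and 1144, against 883 and 862 in controls (0.42, SE 0.07), so the family as a whole was higher by less than its rarer members.

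IFI44L and IFI44, adjacent genes of little known function on chromosome 1 (78619922 to 78664078), rose together. IFI44L stood at 23.6 and 25.3 CPM in the libraries labelled Bromo+/-, against 2.77 and 3.37 CPM in controls (log2 fold change 2.98, SE 0.20, adjusted p = 1.46e-47, edgeR), 7.90-fold. IFI44 stood at 4.65 and 5.05 CPM, against 1.05 and 1.12 CPM in controls (2.14, SE 0.33, adjusted p = 2.91e-11, edgeR). The groups were clear of each other for both. IFI6, a small mitochondrial and reticulum protein that opposes cell death, had 29 and 21 counts in the libraries labelled Bromo+/-, against 5 and 6 in controls (2.06, SE 0.49, adjusted p = 8.42e-06, edgeR). It too was tested only through the libraries labelled Bromo+/-.

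**Figure D2:**
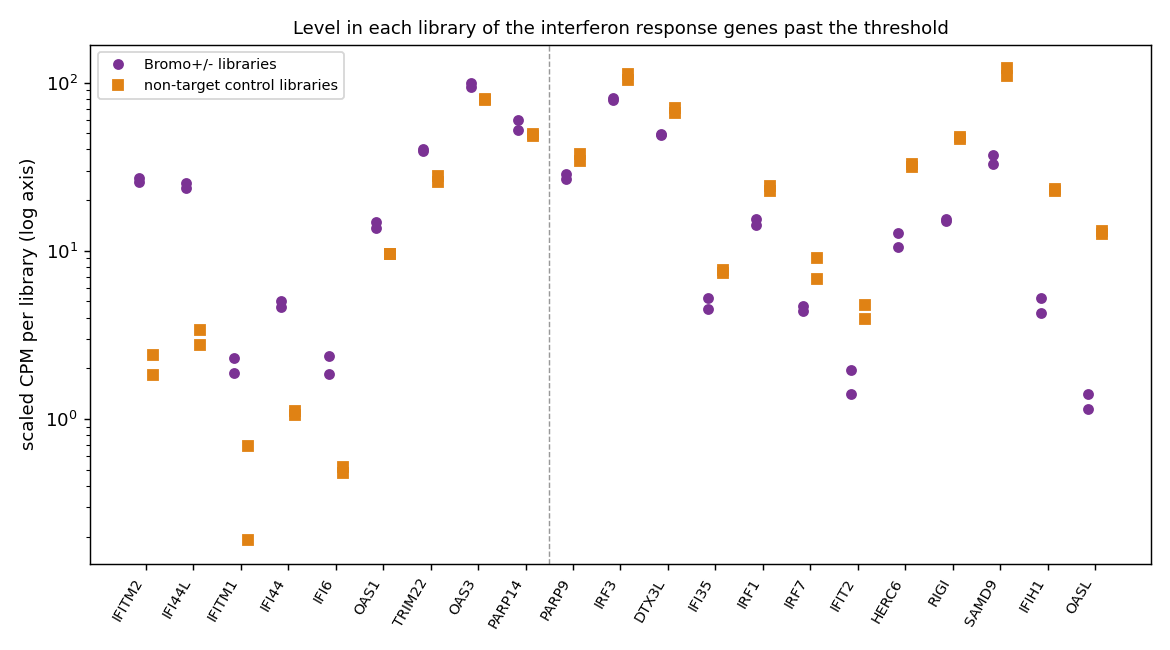
Scaled CPM (log axis) in each library of the 21 members past the threshold, with circles for the 2 Bromo+/- libraries and squares for the 2 controls, ordered by fold change from IFITM2 to OASL. No circle lies within the range of the squares of the same gene, and the dashed line parts the 9 higher from the 12 lower genes.

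The OAS family split within itself. OAS1 and OAS3 sense double-stranded RNA and make an oligoadenylate second messenger, and both were modestly higher. OAS1 stood at 14.9 and 13.6 CPM in the libraries labelled Bromo+/-, against 9.55 and 9.60 CPM in controls (log2 fold change 0.58, SE 0.14, adjusted p = 0.00016, edgeR). OAS3 stood at 99.4 and 94.1 CPM, against 79.8 and 79.2 CPM in controls (0.28, SE 0.07, adjusted p = 0.000112, edgeR). Their neighbour OAS2, on chromosome 12 as well, had 1 count in each library labelled Bromo+/- and none in controls, too few for a fold. OASL, a family member without that enzyme activity that binds RIG-I, lies apart on chromosome 12 (121019111 to 121039242). It showed the largest fall of the set, with 1.14 and 1.42 CPM in the libraries labelled Bromo+/-, against 12.6 and 13.1 CPM in controls (-3.32, SE 0.29, adjusted p = 7.96e-35, edgeR), a 10.0-fold difference.

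SAMD9 and HERC6 fell by more than 2-fold, while the paralogue beside SAMD9 did not pass and the one beside HERC6 had too few counts to test. SAMD9, a cytosolic restriction factor of poxviruses on chromosome 7 (93099513 to 93118023), stood at 33.0 and 37.3 CPM in the libraries labelled Bromo+/-, against 109 and 122 CPM in controls (log2 fold change -1.71, SE 0.08, adjusted p = 7.54e-61, edgeR). Its neighbour SAMD9L stood at 3.51 and 3.81 CPM, against 3.44 and 3.72 CPM in controls, with overlapping groups, did not pass and had a 95% interval of -0.44 to 0.49. The intervals of the pair do not meet, though their difference was not tested. HERC6, a ubiquitin ligase of the HECT class, stood at 12.8 and 10.5 CPM, against 33.0 and 31.3 CPM in controls (-1.45, SE 0.12, adjusted p = 1.53e-28, edgeR). HERC5, the adjacent gene on chromosome 4 and the main ligase for ISG15 in human cells, had 4 and 3 counts, against 2 in each control, and was not tested.

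The 4 IFIT genes, which lie in a row on chromosome 10, mostly did not pass. IFIT2 was lower, with 24 and 16 counts in the libraries labelled Bromo+/-, against 41 and 55 in controls (log2 fold change -1.35, SE 0.28, adjusted p = 4.29e-06, edgeR). It shares 65 bases of exon with LIPA on the opposite strand, and LIPA had 3107 counts over the 4 libraries beside 136 for IFIT2. The 2 genes summed gave 0.085 (SE 0.07, adjusted p = 0.321, edgeR). LIPA supplies most of those counts, so the sum cannot decide whether IFIT2 itself was lower. IFIT3 stood at 4.97 and 6.38 CPM, against 6.69 and 6.57 CPM in controls (-0.23, 95% interval -0.60 to 0.14). IFIT5 stood at 41 and 45.3 CPM, against 39.6 and 42.5 CPM in controls, with overlapping groups (0.07, -0.10 to 0.23). IFIT1, often the most inducible of the 4, was barely present at 19 and 12 counts, against 8 and 12 in controls (0.53, -0.30 to 1.36).

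The ISG15 system attaches the ubiquitin-like protein ISG15 to other proteins. ISG15 stood at 6.76 and 6.47 CPM in the libraries labelled Bromo+/-, against 5.25 and 5.36 CPM in controls, without overlap but not past the threshold (log2 fold change 0.32, 95% interval -0.06 to 0.69). USP18, the protease that removes ISG15 and dampens the interferon receptor, stood at 5.54 and 3.10 CPM, against 6.40 and 5.27 CPM in controls (-0.41, -0.82 to -0.0023, adjusted p = 0.0824, edgeR). Its libraries labelled Bromo+/- differed from each other, and without the first of them it was past the threshold at -0.91 (adjusted p = 0.00335, edgeR).

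PARP9 and DTX3L, which form a complex of an ADP-ribosyltransferase and a ubiquitin ligase and are read from a shared start on chromosome 3 (122527924 to 122575203), fell by like amounts. PARP9 stood at 28.6 and 26.6 CPM in the libraries labelled Bromo+/-, against 34.2 and 37.7 CPM in controls (log2 fold change -0.38, SE 0.09, adjusted p = 0.000144, edgeR). DTX3L stood at 48.7 and 49.5 CPM, against 65.7 and 70.4 CPM in controls (-0.47, SE 0.08, adjusted p = 8.02e-09, edgeR). Their exons overlap by 217 bases on opposite strands, and the pair summed gave -0.44. PARP14, a related transferase further along the same chromosome, went the other way with 52.3 and 59.5 CPM, against 47.8 and 49.1 CPM in controls (0.20, SE 0.08, adjusted p = 0.0203, edgeR). The PARP14 call was lost in DESeq2's Wald test (adjusted p = 0.17), without Bromo+/- replicate 2 (0.311) and without control replicate 1 (0.167) or 2 (0.0958), where the test was edgeR's.

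Of the tripartite motif proteins, TRIM22, which restricts retroviruses, rose to 39.4 and 40.0 CPM in the libraries labelled Bromo+/-, against 25.8 and 27.8 CPM in controls (log2 fold change 0.56, SE 0.09, adjusted p = 1.12e-08, edgeR). TRIM21, a cytosolic receptor for antibody, stood at 27.1 and 24.2 CPM, against 28.8 and 27.7 CPM in controls, and did not pass (-0.14, 95% interval -0.33 to 0.05). IFI35, a leucine zipper protein, was lower at 5.22 and 4.52 CPM, against 7.64 and 7.35 CPM in controls (-0.62, SE 0.19, adjusted p = 0.00284, edgeR), a call that was lost in DESeq2's Wald test (adjusted p = 0.0891).

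Several genes that serve as standard markers of an interferon response were at or near 0 in every library. MX2, which blocks nuclear entry of retroviruses, and XAF1, a partner of the apoptosis inhibitor XIAP, had no count at all. RSAD2, the antiviral enzyme viperin, had 1 count over the 4 libraries. In a library of these depths 3 counts, the limit that a count of 0 allows, correspond to 0.251 to 0.277 CPM. MX1, a dynamin-like GTPase, had 9 and 12 counts in the libraries labelled Bromo+/-, against 13 and 11 in controls (log2 fold change -0.29, 95% interval -1.15 to 0.57). IFI27, a mitochondrial protein, had 10 counts in each library labelled Bromo+/-, against 7 and 11 in controls (0.06, -0.88 to 0.99). BST2, which tethers budding virus to the cell surface, had 3 and 4 counts in the libraries labelled Bromo+/-, against none in controls. With a floor of 3 counts over the control group it was 2.18-fold higher, a value that leaves out the counting error of the BST2 counts themselves.

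Per kilobase of exon (RPKM, which is CPM divided by exon length), levels ran over a wide range. In the libraries labelled Bromo+/- the highest means were 57.5 ± 4.24 for IFITM3, 21.2 ± 0.386 for IRF3, 17.1 ± 0.67 for IFITM2 and 16.5 ± 1.33 for IFI16 (SD, n = 2). In controls they were 57.0 ± 5.10 for IFITM3, 28.5 ± 1.78 for IRF3, 17.4 ± 0.427 for IFI16 and 16.8 ± 1.34 for SAMD9. IFITM2 and IFI16 in the first group, and IFI16 and SAMD9 in the second, were no further apart than their spread. IFITM2 was thus 3rd of the 41 in Bromo+/- libraries, against 24th in controls, and SAMD9 was 13th in Bromo+/- libraries, against 4th in controls. RIGI was 14th in Bromo+/- libraries, at 3.50 ± 0.0819 RPKM, against 7th in controls, at 10.8 ± 0.218 RPKM.

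The genes that sense, transmit and receive were read from lists written with the members. Interferon genes themselves were almost silent. Of 12 ligands 11 had at most 3 counts over the 4 libraries and 8 had none. IFNE, interferon epsilon, a type I interferon made by epithelium of the reproductive tract, was the exception with 29 and 46 counts in the libraries labelled Bromo+/-, against 12 and 10 in controls (log2 fold change 1.66, SE 0.36, adjusted p = 4.56e-06, edgeR). IFNE had enough counts to be tested only through the libraries labelled Bromo+/-. Of the 11 receptor and JAK-STAT genes tested, 7 were higher and STAT3 was lower, beside 26.4% higher and 27.1% lower over all tested genes. IFNAR2, a chain of the type I receptor, stood at 13.2 and 10.8 CPM, against 5.25 and 5.19 CPM in controls (1.20, SE 0.17). IFNGR1 (0.71) and IFNGR2 (0.64), the chains of the interferon-gamma receptor, rose as well. STAT3, at 146 and 142 CPM, against 172 and 174 CPM in controls, fell by 0.26 on the log2 scale.

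**Figure D3:**
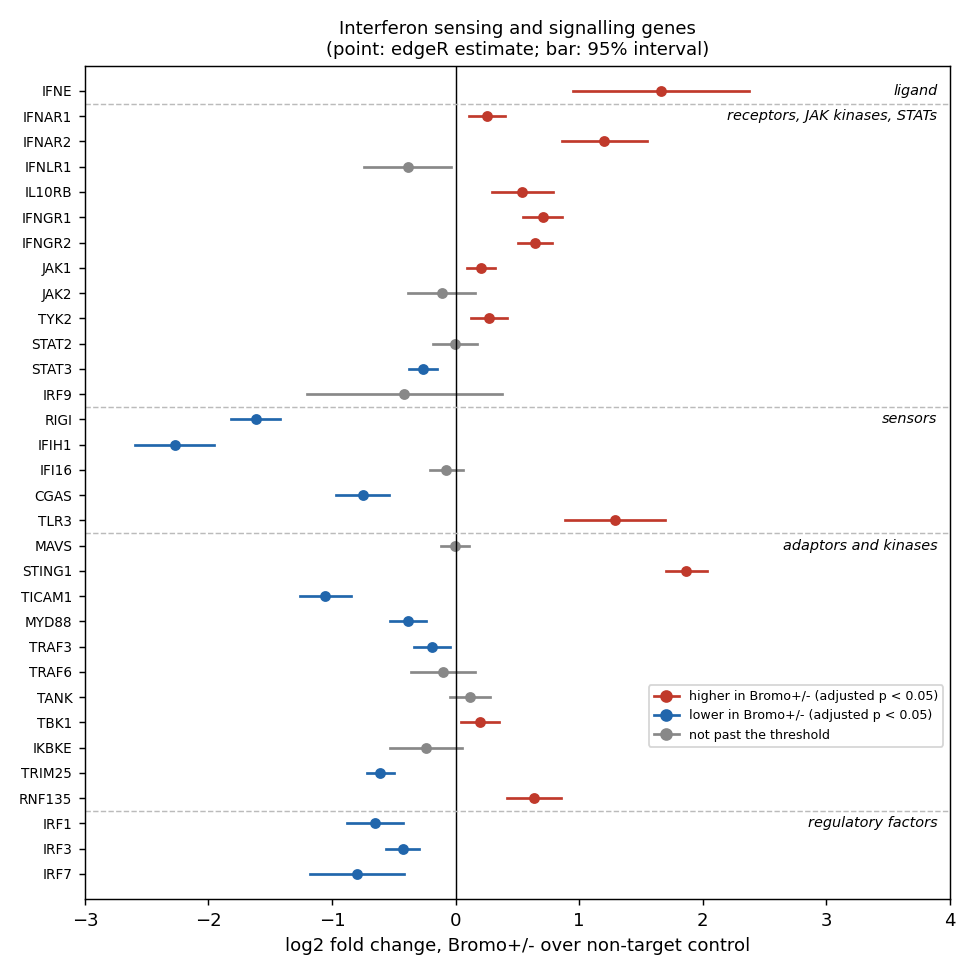
Log2 fold change (Bromo+/- over non-target control, horizontal axis) of genes of interferon sensing and signalling, in layers from ligand at the top to regulatory factors at the bottom, with edgeR estimates as points and 95% intervals as bars. IFNE, IFNAR2, TLR3 and STING1 lie to the right of 1, and RIGI, IFIH1 and TICAM1 to the left of -1.

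Adaptors and kinases of sensing moved in both directions, 4 higher and 5 lower of 14 tested. The share called was 64.3%, near the 53.5% over all tested genes (26.4% higher and 27.1% lower). STING1, the adaptor of cytosolic DNA sensing, had the smallest p and stood at 98.7 and 88.7 CPM in the libraries labelled Bromo+/-, against 27.2 and 24.3 CPM in controls (log2 fold change 1.87, SE 0.08, adjusted p = 9.37e-62, edgeR). CGAS, the enzyme that makes the messenger STING1 binds, fell to 15.2 and 16.4 CPM, against 26.7 and 26.4 CPM in controls (-0.75, SE 0.11). TRIM25, a ubiquitin ligase linked to RIG-I (-0.61), and TICAM1, the adaptor TRIF of the endosomal RNA receptor TLR3 (-1.05), fell, while TLR3 rose (1.29). MAVS, the adaptor of both RNA sensors, stood at -0.0032 with groups that overlapped. The remaining calls of the list were RNF135 (0.63) and TBK1 (0.20), higher, and MYD88 (-0.38) and TRAF3 (-0.19), lower. The list of negative regulators of signalling had 1 higher and 2 lower of 11 tested (27.3% called, beside 53.5% over all tested genes). Its larger changes were in ISG20 and UBE2L6, which do other work, so PTPN11 was the only negative regulator called. ISG20, an RNA exonuclease, fell (-2.61). UBE2L6, the conjugating enzyme of the ISG15 system, had 24 and 22 counts, against 0 and 1 in controls, a ratio of 43.0 (95% exact binomial interval 7.35 to 1736), and was tested only through the libraries labelled Bromo+/-. The phosphatase gene PTPN11 fell by 0.14. Neither SOCS3 nor any PIAS or other PTPN gene of the list passed, and SOCS1 had too few counts.

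Of 30 tested interferon-induced genes outside the set 9 were higher and 11 lower, with a median log2 fold change of -0.08, beside 26.4% higher and 27.1% lower over all tested genes. The number higher depended on the setting. It was 13 with upper quartile scaling or library size alone, which turned the balance, and 6 with DESeq2's Wald test or without either control library, while 11 to 12 were lower under every alternative run. HELZ2, a helicase coactivator, fell to 19.7 and 19.5 CPM in the libraries labelled Bromo+/-, against 41.2 and 43.5 CPM in controls (-1.11), and PLSCR1, a phospholipid scramblase, fell by 0.74. TRIM25, ISG20 and UBE2L6 are in this list as well. Among the higher genes UBE2L6, UBA7 and SHFL had enough counts to be tested only through the libraries labelled Bromo+/-.

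Genes induced by interferon-gamma, with those of class I antigen presentation, gave 11 lower and 0 higher of 14 tested, with a median of -0.72, beside 27.1% lower and 53.5% called over all tested genes. The number lower was 8 with DESeq2's Wald test and 9 without Bromo+/- replicate 1 or either control library. Scaling by library size alone or by the upper quartile called 1 of them higher. CD274, the checkpoint ligand PD-L1, had the smallest p and fell to 8.56 and 7.71 CPM, against 44.9 and 45.7 CPM in controls (log2 fold change -2.47, SE 0.12). The peptide transporter genes TAP2 (-0.94) and TAP1 (-0.58) and the GTPase gene GBP3 (-0.81) fell. CXCL11, a chemokine that interferon-gamma induces, had no count in the Bromo+/- libraries, against 11 and 14 in controls. With a floor of 3 counts over the Bromo+/- group it was 8.91-fold lower, a value that leaves out the counting error of the control counts. CXCL11 and ICAM1, an adhesion molecule, reached the filter on low counts only through the controls.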

How the data were processed

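The values are raw counts per gene that the authors deposited for the 4 libraries in a single table. Per the labels' protocols, Trizol RNA went into TruSeq Stranded mRNA libraries. Per the submitters' processing notes, STAR, GRCh38 and featureCounts 1.5.2 were used. Which annotation was counted, with what strand setting and how reads with several hits were treated is not given in the sources used here. Columns were matched by name, those with WT to the non-target control. Symbols came from current names (57392 genes) and GENCODE release 29 (503), and 338 identifiers stayed unnamed.

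All genes kept by filterByExpr (13179) were fitted in R 4.3.3 with edgeR 4.0.16, using TMM scaling (0.968 to 1.03) and the quasi-likelihood test (robust, residual degrees of freedom 2). Adjusted p-values follow Benjamini and Hochberg across these genes. Standard errors and 95% intervals come from the fitted model. Replicates differed by more than sampling noise (chi-square per degree of freedom 2.44 in Bromo+/- and 1.56 in controls). Exact binomial intervals for genes near 0 cover counting error only. Folds on a floor set a group count of 0 to 3 and take the counts of the other group as exact. The procedure was tested on simulated data. Alternatives were DESeq2 1.42.0, limma 3.58.1 (voom), other scalings and filters, a replicate block and each library left out.

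The members, roles and lists were chosen with earlier results of these data known. Every member is named. From each list up to 4 genes past the threshold with the smallest p are named. TLR3, MAVS, CXCL11, ICAM1, SOCS1, SOCS3, UBA7, SHFL, FN1, VIM, IL3RA, SPIB and the PIAS and PTPN genes were added after their values were seen. So were RNF135, TBK1, MYD88 and TRAF3. Protein sequences were not used here, and some results are not reported here.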

Additional observations from a re-analysis of the deposited data

How the results depend on the processing

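Of the 21 called members 19 kept direction and call under all 13 alternatives fixed with the lists (scalings, filters, tests, replicate block, each library left out), and PARP14 and IFI35 did not, as given above. The members called higher numbered 8 to 9 with a library left out and 8 to 10 otherwise, and those called lower 12 to 13 and 11 to 12. Over all genes the count was 5551 to 6641 with a library left out and 4884 (DESeq2 Wald test) to 7362 (at least 10 counts summed) otherwise. With the replicate number as a block 7271 genes were called and no member changed its call. The same-numbered libraries deviated together with a correlation of only 0.0484, so the numbers were not taken as pairs. Without Bromo+/- replicate 2, IFI16 was past the threshold at -0.16 (adjusted p = 0.0488, edgeR), and without Bromo+/- replicate 1 USP18 was, as above. Leaving out a library gave 1 to 2 lower receptor and JAK-STAT genes and 1 to 2 lower negative regulators. The negative regulators had 1 lower gene with upper quartile scaling, library size alone and the DESeq2 Wald test. With upper quartile scaling or library size alone 1 interferon-gamma or class I gene was called higher, where TMM scaling (trimmed mean of M values) gave 0. Summing overlapping genes was chosen after the data were seen. IFIT2 with LIPA gave a log2 fold change of 0.085 (adjusted p = 0.321, edgeR). LIPA supplies most of those counts, so that sum cannot decide about IFIT2. IFITM1, IFITM2 and IFITM3 summed passed the threshold. IFITM3 alone did not, and the other genes in that sum were already called higher, so it says nothing about IFITM3 itself. The order of levels by CPM alone kept 8 of the 10 highest members per kilobase in controls. Protein identity between paralogues, planned as a description, was not run. Depth limits DHX58, OAS2, MX2, HERC5, BST2, RSAD2 and XAF1, which were not tested.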
